A study of Homo sapiens with 6 samples.

Results

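CREB5 and its relatives form the CREB/ATF family of basic leucine zipper transcription factors, and their RNA was compared in AGS cells, a widely used human gastric carcinoma line, with and without celecoxib. The members were a list of 10 genes, each read at the transcript cluster (the array's probe set for 1 gene) that carries only that gene's symbol. Of the 10, 9 were measured, among 18417 genes in all, each by 1 cluster that it shares with no other symbol. ATF1 was not analysed here. CREB5 was chosen by its difference between celecoxib and control arrays, which was among those called over the whole table, so its values are given as a description and without a test. The other 8 measured genes were added as its relatives.

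Cells were grown for 48 h after seeding and then kept for 24 h with 20 µM celecoxib, an inhibitor of cyclooxygenase-2, or without it. The celecoxib had been dissolved in DMSO, and the labels do not say whether the control wells were given the solvent. RNA was measured on HuGene-1_0-st arrays, 3 per group, from 250 ng of total RNA each. The arrays are labelled as biological replicates of 1 line, but the protocol also mentions pooling of samples, so p-values measure only the spread between these arrays, which may be technical. Values are log2 expression after RMA, and a difference is celecoxib minus control, so that 1 unit is a 2-fold change. The number of arrays limits the precision.

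Factors of this family bind the cAMP response element, a short palindrome in gene promoters, as pairs held together by their leucine zippers. CREB1, CREM and ATF1 are classic effectors of cAMP: protein kinase A phosphorylates them, and they then recruit the coactivators CREBBP and EP300. CREB5, ATF2 and ATF7 form a separate branch that also pairs with JUN, and ATF2 and ATF7 are phosphorylated by the stress kinases JNK and p38. CREB3, CREB3L1 and CREB3L2 are made as membrane proteins of the endoplasmic reticulum and release their transcription factor part after cleavage in the Golgi. CREBL2 is a small CREB-like zipper protein.

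Because many genes of cAMP signalling carry the element themselves, the bases before the members' own transcription starts were searched for it. RefSeq start sites (GRCh38.p14) gave 19 windows of 250 bases for 8 of the 9 measured members. CREM gave 7 of them, and some windows of CREM and of ATF7 overlap, so the 19 are not separate stretches. The full element TGACGTCA, which reads the same on both strands, was in 2 of the 19 windows, against 1.65% of 35116 such windows of the genome. One lay before an internal start of CREM, 50 bases from it, and the other before a start of CREB3L2, 179 bases from it. Its core, TGACG or the complement CGTCA, which the full element contains, was in 5 of the 19 windows (21.2% of all windows). The 3 windows of CREB5 held neither. The last of the CREB5 windows held TGACTCA, the element bound by FOS and JUN pairs, 44 bases before the start; this element, on either strand (TGACTCA or TGAGTCA), is in 4.2% of all windows. These are matches of letters only, and the array's single cluster for CREB5 does not tell its starts apart. The 3 CREB5 windows are shown because CREB5 is the member with the large difference, and those of CREM and CREB3L2 because they hold the full element; capitals mark the full cAMP response element or, in CREB5, the FOS/JUN element.
CREB5, chr7:28412268-28412517, plus strand: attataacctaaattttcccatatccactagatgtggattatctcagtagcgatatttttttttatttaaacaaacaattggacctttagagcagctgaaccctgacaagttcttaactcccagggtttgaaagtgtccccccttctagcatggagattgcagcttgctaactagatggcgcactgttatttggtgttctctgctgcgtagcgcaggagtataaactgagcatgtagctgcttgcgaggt
CREB5, chr7:28435365-28435614, plus strand: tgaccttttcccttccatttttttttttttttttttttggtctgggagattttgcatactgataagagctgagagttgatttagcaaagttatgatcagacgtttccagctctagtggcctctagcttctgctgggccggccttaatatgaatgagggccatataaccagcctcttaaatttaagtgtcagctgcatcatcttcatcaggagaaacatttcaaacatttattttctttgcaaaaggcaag
CREB5, chr7:28685883-28686132, plus strand: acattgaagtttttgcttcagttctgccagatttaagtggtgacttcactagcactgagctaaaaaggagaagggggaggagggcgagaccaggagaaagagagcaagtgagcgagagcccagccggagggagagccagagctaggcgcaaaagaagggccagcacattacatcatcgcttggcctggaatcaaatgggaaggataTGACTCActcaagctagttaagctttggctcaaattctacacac
CREM, chr10:35195652-35195901, plus strand: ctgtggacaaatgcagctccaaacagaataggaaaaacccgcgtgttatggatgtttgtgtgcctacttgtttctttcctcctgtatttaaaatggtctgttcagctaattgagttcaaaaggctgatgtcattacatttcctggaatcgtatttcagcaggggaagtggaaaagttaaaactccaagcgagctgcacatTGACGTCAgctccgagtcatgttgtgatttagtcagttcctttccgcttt
CREB3L2, chr7:138002087-138002336, minus strand: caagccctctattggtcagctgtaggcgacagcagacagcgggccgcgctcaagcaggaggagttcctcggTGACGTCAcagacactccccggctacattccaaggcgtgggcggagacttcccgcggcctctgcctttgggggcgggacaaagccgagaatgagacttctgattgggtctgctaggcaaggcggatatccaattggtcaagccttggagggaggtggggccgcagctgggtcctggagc

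The 6 arrays had medians from 6.75 to 6.82 over all 33297 clusters, and any 2 arrays correlated across clusters with a Pearson r of 0.985 to 0.996. Celecoxib 1 stood furthest from the rest on the first principal component (40.4% of the variance), and the median level of 195 small nuclear and nucleolar RNA genes was also highest there, at 7.49 against 6.98 to 7.21 in the other 5 arrays. Where leaving out celecoxib 1 moved a member's difference, or a named pathway gene's difference of 0.1 or more, by over 1.5 times, the value without it is given too. Values with the arrays' small RNA level as a covariate are given for some genes only. Several epithelial markers were high in all arrays, with EPCAM at 11.8 to 11.96, KRT18 at 11.8 to 12.1 and KRT19 at 11.1 to 11.2. CDH1 lay lower, at 7.69 to 8.01, and CLDN18 at 6.53 to 6.79, near the median cluster (6.785). The gastric surface marker GKN1 lay between 3.42 and 3.89, below the 5.04 that bounds the dimmest 20% of clusters. The secreted trefoil peptides TFF2 and TFF3 lay at 6.42 to 6.65 and 6.27 to 6.83. In the same list GATA6 (9.87 to 10.44), MUC1 (9.17 to 10.29), SOX9 (8.91 to 9.33) and TFF1 (7.39 to 8.01) lay above the median cluster. Of the 13 gastric and epithelial markers measured, 3 had differences above 0 and 10 below, beside 52.1% of all genes below 0, and 0 passed (limma). KRT18 was lower in all celecoxib arrays (-0.21 ± 0.07) and CLDN18 higher in all (0.17 ± 0.07), as were 7.95% and 11.1% of all genes. Of markers of other cell types, PTPRC of leukocytes lay between 3.85 and 4.10 and the fibroblast genes DCN and LUM between 2.64 and 3.60. The macrophage marker CD68 (8.07 to 8.21), the fibroblast collagen COL1A1 (7.61 to 7.78) and, in some arrays, the astrocyte marker GFAP (6.56 to 7.06) were above the median cluster, and COL3A1 lay at 6.42 to 6.74. Of the 11 such markers measured, 0 passed the test between groups (limma; 1 had an unadjusted p under 0.05).

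CREB5 RNA was lower in every celecoxib array than in every control. Its log2 values were 8.55, 8.56 and 8.65 in the controls and 7.66, 7.75 and 7.72 with celecoxib. The lowest control and the highest celecoxib value were 0.80 apart, while the controls spanned 0.09 and the celecoxib arrays 0.09. The means were 8.59 ± 0.05 and 7.71 ± 0.04 (SD, n = 3), a difference of -0.88 ± 0.07 (SE of the fit over all genes). CREB5 was chosen by this difference, which may therefore be overstated. On the linear scale this is 1.84-fold lower, the 8th largest fall of the 18417 genes. RNA came from whole wells, so fewer cells with the transcript and less transcript per cell cannot be told apart. Without celecoxib 1 the difference was -0.85, and with each array left out in turn it lay between -0.90 and -0.85.

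**Figure D1:**
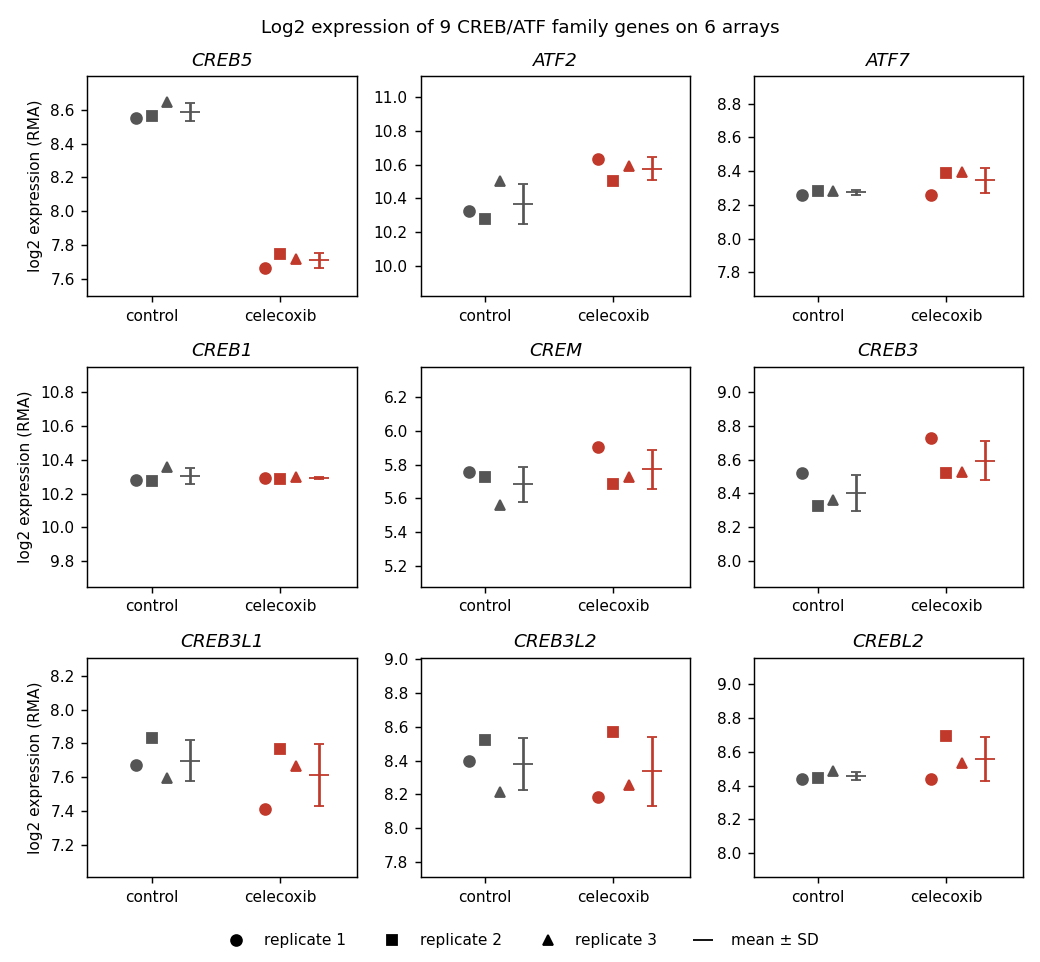
Log2 expression (RMA) of the 9 measured members on each array, controls in grey and celecoxib in red, with the mean and SD of 3 arrays beside the points; every panel spans the same height. CREB5 is the member with a wide gap between groups, from 8.55 at the lowest control to 7.75 at the highest celecoxib array, while the other members lie within 0.21 of equal means.

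ATF2 and ATF7, the nearest relatives of CREB5, had differences above 0, and neither was called. ATF2 stood at 10.33, 10.28 and 10.50 in the controls and 10.63, 10.50 and 10.59 with celecoxib. Its groups touched, with control 3 at 10.5023 and celecoxib 2 at 10.5016. The ATF2 difference was 0.21 ± 0.08, with a 95% interval from 0.02 to 0.40, and did not pass over all genes (limma adjusted p = 0.413). With the arrays' small RNA level as a covariate the ATF2 difference was 0.12. ATF7 stood at 8.26, 8.28 and 8.28 in the controls and 8.26, 8.39 and 8.39 with celecoxib. Celecoxib 1 thus lay among the ATF7 controls and the other 2 celecoxib arrays above them, for a difference of 0.07 ± 0.07 and an interval from -0.09 to 0.23 (adjusted p = 0.711). Without celecoxib 1 it was 0.11.

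The cAMP effectors CREB1 and CREM gave no called difference either. CREB1, the factor for which the family is named, stood at 10.28, 10.28 and 10.36 in the controls and 10.29, 10.29 and 10.30 with celecoxib. All its celecoxib values fell inside the control range, and the difference was -0.01, with an interval from -0.16 to 0.14 (limma adjusted p = 0.954). CREM encodes both activators and, from its internal starts, the short repressor ICER, which the single cluster does not separate. CREM was dim, with 5.76, 5.73 and 5.56 in the controls and 5.90, 5.69 and 5.73 with celecoxib, and the groups overlapped. Its difference was 0.09 ± 0.09, with an interval from -0.11 to 0.29 (adjusted p = 0.713), and it shrank to 0.02 without celecoxib 1, its highest array.

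Of the membrane-bound members, CREB3 had the larger difference. It stood at 8.52, 8.33 and 8.36 in the controls and 8.73, 8.52 and 8.53 with celecoxib. All 3 celecoxib values lay above all 3 controls, though control 1 (8.5214) and celecoxib 2 (8.5229) were almost equal. CREB3 differed by 0.19 ± 0.09, with an interval from -0.01 to 0.39 (limma adjusted p = 0.457). Without celecoxib 1 the CREB3 difference was 0.12, and with the arrays' small RNA level as a covariate it was 0.04; the part of small RNA in it was not tested further.

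CREB3L1 and CREB3L2 varied within each group by more than the groups differed. CREB3L1 stood at 7.67, 7.83 and 7.59 in the controls and 7.41, 7.76 and 7.67 with celecoxib. CREB3L2 stood at 8.40, 8.52 and 8.22 in the controls and 8.19, 8.57 and 8.26 with celecoxib. In both genes the groups overlapped, and celecoxib 1 was the lowest array and replicate 2 the highest of its group. Their differences were -0.08 ± 0.11 (interval from -0.33 to 0.16, limma adjusted p = 0.782) and -0.04 ± 0.12 (-0.32 to 0.24, adjusted p = 0.911). Both turned positive without celecoxib 1, at 0.02 for CREB3L1 and 0.04 for CREB3L2.

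CREBL2 stood at 8.44, 8.45 and 8.48 in the controls and 8.44, 8.70 and 8.54 with celecoxib. Celecoxib 1 was the lowest of the 6 arrays and the other celecoxib arrays were the highest, so the groups overlapped. The CREBL2 difference was 0.10 ± 0.08, with an interval from -0.09 to 0.29 (limma adjusted p = 0.659). It was 0.16 without celecoxib 1 and 0.03 without celecoxib 2.

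Of the 8 relatives of CREB5, limma thus called 0 at an adjusted p of 0.05, the threshold used throughout, and 1 (ATF2) had an unadjusted p under 0.05. Over all 18417 genes the share called was 0.141% (0.076% higher and 0.0652% lower), and 11.3% had an unadjusted p under 0.05 (6.87% higher and 4.44% lower). The groups did not overlap in 1 of the 8, CREB3, in the higher direction, where 11.1% of all genes were higher without overlap and 7.95% lower. Of the 8 differences 5 were above 0 and 3 below, from -0.08 to 0.21, with a median of 0.08; of all genes 47.9% were above 0 and 52.1% below, with a median of -0.01. The lowest bound of any of the 8 intervals was -0.33, while the CREB5 difference was -0.88. These comparisons use the same 6 arrays, and CREB5 was picked for its size, so the gap between it and its relatives is a description.

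**Figure D2:**
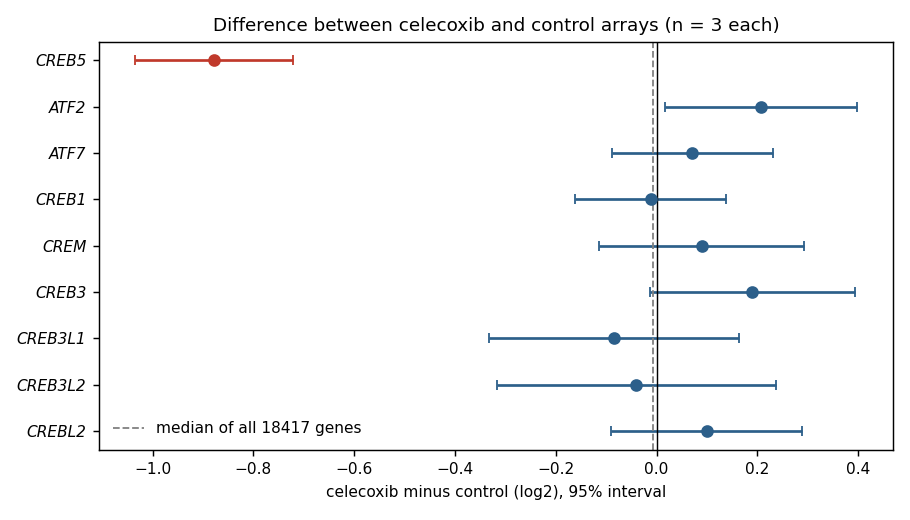
Celecoxib minus control (log2) for each measured member, with the 95% interval of the fit over all genes; the dashed line is the median of all 18417 genes. CREB5 lies at -0.88 and the other 8 members between -0.08 and 0.21. Of the intervals of these 8 only that of ATF2 (0.02 to 0.40) does not include 0. CREB5 was chosen by this difference, so its interval is drawn as a description and is no test.

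The other genes of the pathway were taken from 9 lists, running from cAMP production to genes that carry the element. Outside the family, 152 of their 157 genes were measured. Limma called 0 of them, and 17 (11.2%) had an unadjusted p under 0.05, 12 higher and 5 lower, beside 11.3% of all genes. Groups did not overlap in 19.7% of them, beside 19% of all genes.

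Upstream of the cAMP-responsive members, no gene was called. Of 15 adenylyl cyclases and G protein subunits, 14 had differences below 0, with a median of -0.08, and 0 passed. Of all genes 52.1% were below 0. Some of the 15 were dim, such as GNAI1 and ADCY10, and ADCY4 stood at -0.002. The largest was ADCY7, a cyclase, at 7.85, 7.89 and 7.82 in the controls and 7.33, 7.64 and 7.62 with celecoxib, so that all celecoxib arrays were lower (-0.32 ± 0.09, limma adjusted p = 0.308). GNAS, the stimulatory G protein, differed by -0.28 ± 0.13 and the inhibitory subunit GNAI2 by -0.23 ± 0.12, both with overlapping groups and celecoxib 1 lowest. Without that array they were -0.13 and -0.09, and with the arrays' small RNA level as a covariate 0.04 and 0.07. ADCY3, ADCY6 and ADCY9 turned positive without celecoxib 1 (0.04, 0.01 and 0.02), while ADCY7 stayed lower (-0.22, and -0.13 with that covariate). Of 19 genes of protein kinase A, its inhibitors and its anchoring proteins, 9 were above 0 and 10 below, and 0 passed. The catalytic subunits PRKACA and PRKACB stood at -0.11 ± 0.14 (0.03 without celecoxib 1) and -0.04 ± 0.12. PKIB, an inhibitor of the kinase, was higher in all celecoxib arrays (0.36 ± 0.11, limma adjusted p = 0.3197). The anchors AKAP6 (0.29 ± 0.10) and AKAP11 (0.13 ± 0.08) were also higher in all, while AKAP10 overlapped between groups (0.18 ± 0.09). With the small RNA covariate PKIB was 0.12 and AKAP6 0.15, while AKAP11 was 0.20 and AKAP10 0.32. ADCY7, PKIB and AKAP6 had an unadjusted p under 0.05 (limma), beside 11.3% of all genes. Of 15 cAMP phosphodiesterases, which degrade the messenger, 9 were above 0 and 6 below, all 15 with overlapping groups; the smallest p values were those of PDE7A (0.18 ± 0.11), PDE4A (-0.13 ± 0.09, and -0.05 without celecoxib 1) and PDE7B (0.11 ± 0.08).

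Among kinases and phosphatases that act on CREB or its coactivators, RPS6KA5 was furthest from 0. It encodes MSK1, a nuclear kinase that phosphorylates CREB1 and ATF1. RPS6KA5 stood at 6.50, 6.60 and 6.36 in the controls and 7.01, 7.22 and 7.07 with celecoxib. Every celecoxib array was above every control, by 0.41 or more, and the difference was 0.62 ± 0.09, or 1.53-fold, with an adjusted p just outside the threshold (limma adjusted p = 0.0582). It passed in 6 of 20 alternative settings of the analysis. RPS6KA4, which encodes the related MSK2, stood at -0.19 ± 0.10, and at -0.12 without celecoxib 1. CAMK2D, a calcium-dependent kinase, differed by 0.21 ± 0.09 and the calcineurin subunit PPP3CB by -0.38 ± 0.17, each with overlapping groups. PPP3CB was lowest in celecoxib 1 and differed by -0.20 without it. With the arrays' small RNA level as a covariate PPP3CB was 0.01 and RPS6KA4 0.0008, while CAMK2D was 0.38 and RPS6KA5 0.74. Of the 18 measured genes of this list, 6 were above 0 and 12 below, with a median of -0.08, and 0 passed.

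Of the stress kinases that act on ATF2 and ATF7, 7 of 11 measured genes were above 0 and 4 below, with a median of 0.05, and 0 passed. MAP3K5, an upstream kinase of JNK and p38, differed by 0.30 ± 0.12, MAP2K4, which activates JNK, by 0.16 ± 0.08, and MAPK8 (JNK1) by 0.13 ± 0.08. Only MAP2K4 of these 3 had groups that did not overlap, and its difference was 0.10 without celecoxib 1. With the arrays' small RNA level as a covariate MAP2K4 was 0.03 and MAPK8 0.02, while MAP3K5 was 0.53.

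Coactivators and corepressors numbered 12, with 7 above 0 and 5 below, and 0 passed. CREBBP and EP300, the acetyltransferases that phosphorylated CREB recruits, stood at -0.24 ± 0.19 and 0.01 ± 0.13. CREBBP was lowest in celecoxib 1 and stood at -0.04 without it, and at 0.23 with the arrays' small RNA level as a covariate. The CRTC coactivators, which enter the nucleus when cAMP or calcium rises, stood at 0.03 ± 0.12 (CRTC1), -0.05 ± 0.11 (CRTC2) and 0.05 ± 0.11 (CRTC3). CREBRF, a factor that promotes the breakdown of CREB3, stood at 7.11, 7.17 and 7.13 in the controls and 7.45, 7.59 and 7.33 with celecoxib. All its celecoxib values were higher, and the difference was 0.32 ± 0.08 (limma adjusted p = 0.272). TAF4B (0.20 ± 0.09) was also higher without overlap, and HDAC1 stood at 0.09 ± 0.07.

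**Figure D3:**
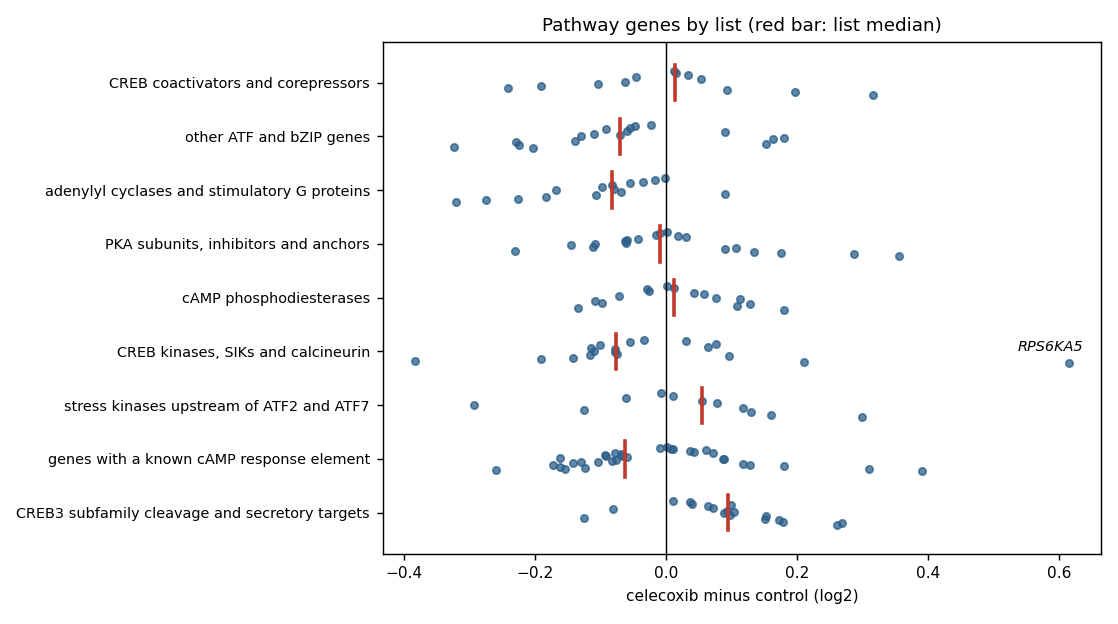
Celecoxib minus control (log2) for the measured genes of 9 pathway lists, 1 point per gene; the red bar is the list median, and the height of a point within its row has no meaning. RPS6KA5 at 0.62 is furthest from 0, and the list medians lie between -0.08 and 0.10.

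Genes with a known cAMP response element numbered 32 measured, CREM among them, with 14 above 0, 18 below and a median of -0.06. Of these 0 passed (limma), and 3 had an unadjusted p under 0.05, beside 11.3% of all genes. Groups did not overlap in 2 higher genes and 4 lower, beside 11.1% and 7.95% of all genes. PPARGC1A, a coactivator of mitochondrial genes induced by CREB in liver and muscle, stood at 7.43, 7.45 and 7.51 in the controls and 7.91, 7.92 and 7.73 with celecoxib. Its groups were well apart, at 0.39 ± 0.08, without passing over all genes (adjusted p = 0.144). The nuclear receptor NR4A2 was higher in all celecoxib arrays (0.31 ± 0.09) and its relative NR4A1 lower in all (-0.12 ± 0.07). The phosphatase gene DUSP1 was lower in all (-0.26 ± 0.07, adjusted p = 0.301), as were CCND1, the gene of cyclin D1 (-0.15 ± 0.07), and PER1 of the circadian clock (-0.08 ± 0.07). SIK1 was not analysed here. The directions within this list were thus mixed, and some of its genes were dim. VIP, CRH and G6PC1, for example, lay below the 5.04 that bounds the dimmest 20% of clusters.

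Cleavage factors and secretory targets of the CREB3 branch numbered 18, with 16 above 0, 2 below and a median of 0.10. Of all genes 47.9% were above 0. Of these 0 passed (limma), and 4 had an unadjusted p under 0.05, all higher, beside 6.87% of all genes that were higher at that p. Groups did not overlap in 8 higher genes and 1 lower, beside 11.1% and 7.95% of all genes. SAR1B, a GTPase of vesicle export from the endoplasmic reticulum, stood at 9.94, 9.82 and 9.95 in the controls and 10.28, 10.12 and 10.10 with celecoxib (0.26 ± 0.08, adjusted p = 0.324). SEC24D, which loads cargo into those vesicles, stood at 8.9995, 8.97 and 8.97 in the controls and 9.14, 9.19 and 9.16 with celecoxib (0.18 ± 0.06). HERPUD1, of protein degradation at that membrane, differed by 0.27 ± 0.08. The proteases that cleave the CREB3 factors, MBTPS2 (0.15 ± 0.07) and MBTPS1 (0.09 ± 0.07), were higher without overlap. The collagen gene COL1A1 was the lower one without overlap (-0.12 ± 0.07), and XBP1 stood at 0.01 ± 0.06. With the arrays' small RNA level as a covariate SAR1B was 0.12 and MBTPS2 0.09, while SEC24D was 0.20, HERPUD1 0.36 and MBTPS1 0.15. With it SEC23B, SAR1A and ARF4 turned negative (-0.02, -0.06 and -0.03).

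Of 17 other ATF and zipper genes, 4 were above 0 and 13 below, with a median of -0.07, and 0 passed (limma). Of all genes 52.1% were below 0. An unadjusted p under 0.05 was seen in 3 of the 17, all lower, beside 4.44% of all genes that were lower at that p. Groups did not overlap in 4 lower genes and 1 higher, beside 7.95% and 11.1% of all genes. JUN, with which the CREB5 branch also pairs, stood at 8.49, 8.56 and 8.36 in the controls and 7.89, 8.31 and 8.24 with celecoxib. It was lower in all celecoxib arrays, most in celecoxib 1, at -0.32 ± 0.12 (adjusted p = 0.374), and differed by -0.20 without that array. With the arrays' small RNA level as a covariate the JUN difference was -0.06. ATF5 (-0.20 ± 0.07), FOSL2 (-0.23 ± 0.12, and -0.10 without celecoxib 1) and ATF4 (-0.07 ± 0.07) were also lower without overlap, and JUND (-0.22 ± 0.09) nearly so. With that covariate FOSL2 was 0.04 and JUND -0.07, while ATF5 was -0.18 and ATF4 -0.10. FOS stood at 0.18 ± 0.11 and ATF3 at -0.11 ± 0.11, both with overlapping groups. Without celecoxib 1 they were 0.07 and -0.23, and with that covariate -0.07 and -0.35. ATF6, another membrane-bound factor cut by the same Golgi proteases as CREB3, was higher in all celecoxib arrays (0.15 ± 0.07).

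The genes whose pattern over the 6 arrays was most like that of CREB5 were sought among 10402 protein-coding genes brighter than the median cluster (6.785). Pearson's r, which here mostly carries the gap between the groups, exceeded 0.95 for 85 of them and was under -0.95 for 156. The 8 most alike were MMP24, a membrane-bound metalloproteinase (r = 0.998), DPYSL3 (0.997), CEP55, which acts in the last step of cell division (0.995), DNAJC15 (0.995), the endothelial lipase LIPG (0.992), TUFT1 (0.991), the proliferation marker MKI67 (0.989) and MSN, the gene of moesin, which ties actin to the membrane (0.989). MMP24 stood at 7.48, 7.45 and 7.53 in the controls and 7.03, 7.05 and 7.04 with celecoxib. All 8 were lower in every celecoxib array, by 0.21 to 0.70, each by less than CREB5. The 4 most opposed were the cystine transporter SLC7A11 (r = -0.999), TMEM144 (-0.997), SMAD5, which carries bone morphogenetic protein signals (-0.995), and FNIP1 (-0.992). Over the same arrays the members themselves had r with CREB5 from -0.776 (ATF2) to 0.337 (CREB3L1). With 6 arrays these values describe the arrays and carry no test.

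**Figure D4:**
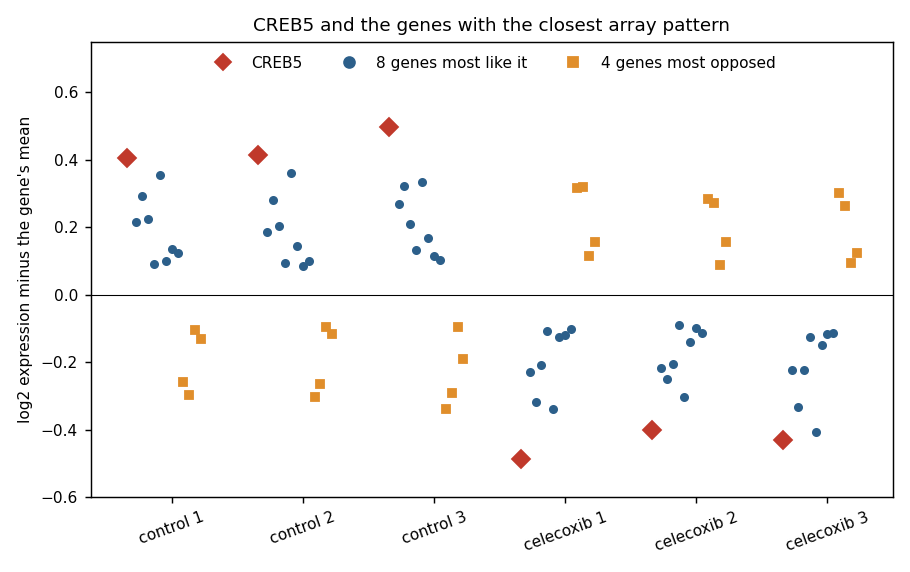
Log2 expression minus each gene's own mean on the 6 arrays, for CREB5 (red diamonds), the 8 genes most like it (blue circles) and the 4 most opposed (orange squares). CREB5 lies above its mean in the controls and below it with celecoxib, and the 8 genes like it follow with smaller differences, from -0.21 to -0.70.

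The neighbours of CREB5 on its chromosome were not called. The 3 measured protein-coding genes nearest before it were HIBADH, TAX1BP1 and JAZF1, and the 3 after it TRIL, CPVL and PRR15. JAZF1, next to CREB5 on one side, stood at 7.94, 8.04 and 7.65 in the controls and 7.89, 7.96 and 7.74 with celecoxib, with overlapping groups (-0.02 ± 0.11). TRIL, the next on the other side, differed by 0.07 ± 0.08, and TAX1BP1 by 0.02 ± 0.07. HIBADH (0.15 ± 0.07) and CPVL, a carboxypeptidase-like protein (0.37 ± 0.10), were higher in all celecoxib arrays, and PRR15 lower in all (-0.18 ± 0.08). Among all genes 11.1% were higher without overlap and 7.95% lower. CPVL and PRR15 had an unadjusted p under 0.05 (limma), as had 11.3% of all genes. None of the 6 passed over all genes (limma adjusted p from 0.270 to 0.965).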

How the data were processed

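The authors deposited log2 expression values for 33297 transcript clusters on 6 arrays, made with RMA in Affymetrix Expression Console 1.1, per the submitters' processing notes. Probe-level settings, scanner files, slides and scan dates were not used here, so no batch was tested and signal over background was not set.

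Clusters were named from the platform annotation. Clusters with 1 symbol (19460) were kept, and for 769 genes with several the cluster with the highest mean over all arrays, which left 18417 genes. Groups came from the labels. Limma 3.58.1 in R 4.3.3 (lmFit, eBayes) compared 3 celecoxib with 3 control arrays, two-sided, with Benjamini-Hochberg adjustment over the 18417 genes and a threshold of 0.05. The procedure was tested on simulated data. Named genes are the members, the 3 of each list with the smallest p, those most like or opposed to CREB5 and its neighbours; others are named for their role or after their values were seen. The members and lists were chosen with earlier results of these data known. The 20 alternatives were other cluster rules, filters, normalizations, variance priors, weights for arrays, a block for the replicate number, the median of small RNA genes as a covariate, and leaving out each array. Matplotlib 3.10.9 (Python 3.11.15) drew the figures.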

Additional observations from a re-analysis of the deposited data

How the results depend on the processing

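CREB5 differed by -0.90 to -0.84 in the 20 alternatives, and limma called 0 of its relatives in each (8 tested, or 7 where CREM was left out). The call that brought CREB5 forward was met in 12 of them and not in 8. Over the whole table, limma called 26 genes and 49 among protein-coding genes only, 76 above the median signal, 53 without the dimmest 20%, 44 after a further quantile normalization, 42 after cyclic loess, 69 with an intensity trend, robust or not, 177 with array weights, 1 with the small RNA covariate and 0 over all clusters (2551 with an unadjusted p under 0.05). With an array left out the count lay between 0 and 5 (1293 to 2353 with an unadjusted p under 0.05). The number of pathway list genes called was 1, RPS6KA5, among protein-coding genes, with either filter and with either trend, and 2, RPS6KA5 and PPARGC1A, with array weights.

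A replicate block gave 0 called genes, CREB5 thus not among them, and 2448 had an unadjusted p under 0.05, beside 2083 without the block. The correlations of deviations between same-numbered arrays were -0.088, 0.448 and 0.053. These values do not settle whether the numbers pair the arrays, and the main fit used no block.

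Small differences changed sign. With the small RNA covariate CREM was -0.0029, CREB3L1 0.149 and CREB3L2 0.141, and with array weights CREB1 was 0.0078; the cause was not tested. With an array left out, CREB1 ran from -0.027 to 0.015, CREB3L1 from -0.160 to 0.017 and CREB3L2 from -0.157 to 0.035. The filter at the median signal left out CREM.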
